A study of Mus musculus with 18 samples.

Results

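The respiratory chain and ATP synthase genes measured here were chosen by symbol: every probeset with a single gene symbol that began with Nduf, Uqcr, Cox4 to Cox8 or Atp5, or was Cyc1, Cycs, Sdhc or Sdhd. This gave 73 genes from 79 probesets, out of 15300 probesets with 13255 distinct single symbols, and each gene was represented by its brightest probeset. The genes fell into 37 of complex I (6 core subunits, 25 accessory subunits and 6 assembly factors), 2 of complex II, 9 of complex III, cytochrome c, 12 of complex IV and 12 of ATP synthase (4 of F1, 8 of Fo and the stalks). The choice is by symbol, so it takes in 6 Ndufaf genes that help to build complex I without staying in it, and it counts Ndufa4 with complex I although its protein is now regarded as a subunit of complex IV.

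The muscle was gastrocnemius, the main calf muscle and one built mostly of fast fibres, from both legs of male C57BL/6 mice aged 2, 11 and 25 months. The mice were not described as carrying any transgene or treatment, and 6 biological replicates of each age were run on 1 array each, 18 arrays in all. Affymetrix whole-transcript arrays were hybridised with single-stranded cDNA made from total RNA after removal of ribosomal RNA. All levels below are log2 of the deposited intensity, all changes are differences of log2 means with the standard error (SE) of the limma fit, and a gene is called when its p, adjusted by Benjamini-Hochberg over all 15300 probesets, is under 0.05.

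The respiratory chain passes electrons from NADH through complex I, or from succinate through complex II, to ubiquinone, on to complex III, by cytochrome c to complex IV and so to oxygen. Complexes I, III and IV pump protons across the inner mitochondrial membrane, and ATP synthase lets them back through its Fo ring to drive ATP synthesis in F1. Every gene described here is nuclear, its protein is imported into the mitochondrion, and slow and fast oxidative fibres carry more of these complexes than fast glycolytic fibres.

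The differences between ages were small and few genes passed the test. At 25 against 2 months, 10 of the 73 genes were lower and 1 was higher. The lower genes were Ndufa8, Ndufb10 and Ndufs6 of complex I, the assembly factor Ndufaf5, Cyc1 of complex III, Cycs, Cox4i1 and Cox5a of complex IV, and Atp5g1 and Atp5g3 of ATP synthase, with falls of 1.16-fold to 1.29-fold; the higher gene was Ndufa13. At 11 against 2 months 4 genes were higher (Ndufa13, Ndufaf2, Sdhc and Cox8b) and 3 lower (Ndufa8, Ndufb10 and Atp5g3). At 25 against 11 months none of the 73 was called. In all, 14 genes were called in at least 1 comparison and 59 in none.

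These counts were read against the whole array. The 7 genes called at 11 against 2 months were 9.59% of the 73, and 19.1% of all probesets were called there, 11.9% higher and 7.18% lower. The 11 called at 25 against 2 months were 15.1%, beside 17.4% of all probesets, of which 10.5% were higher and 6.95% lower. The share of these genes that was called was thus no larger than that of the array. At 25 months more of the called genes were lower than higher, and over the array more were higher than lower. Most of these genes are bright, 61 of the 73 lying in the brightest 25% of probesets. In that bright part of the array 882 probesets were higher and 317 lower at 25 than at 2 months. At 11 against 2 months 994 were higher and 203 lower there. The share called in the bright part was 31.3% in each of these comparisons, above the 9.59% and 15.1% of the 73 genes. By the F statistic over the 3 ages, 8 of the 73 genes were called, beside 19.2% of all probesets. In whole muscle, a smaller share of a fibre type or cell type and less RNA per cell cannot be told apart.

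**Figure D1:**
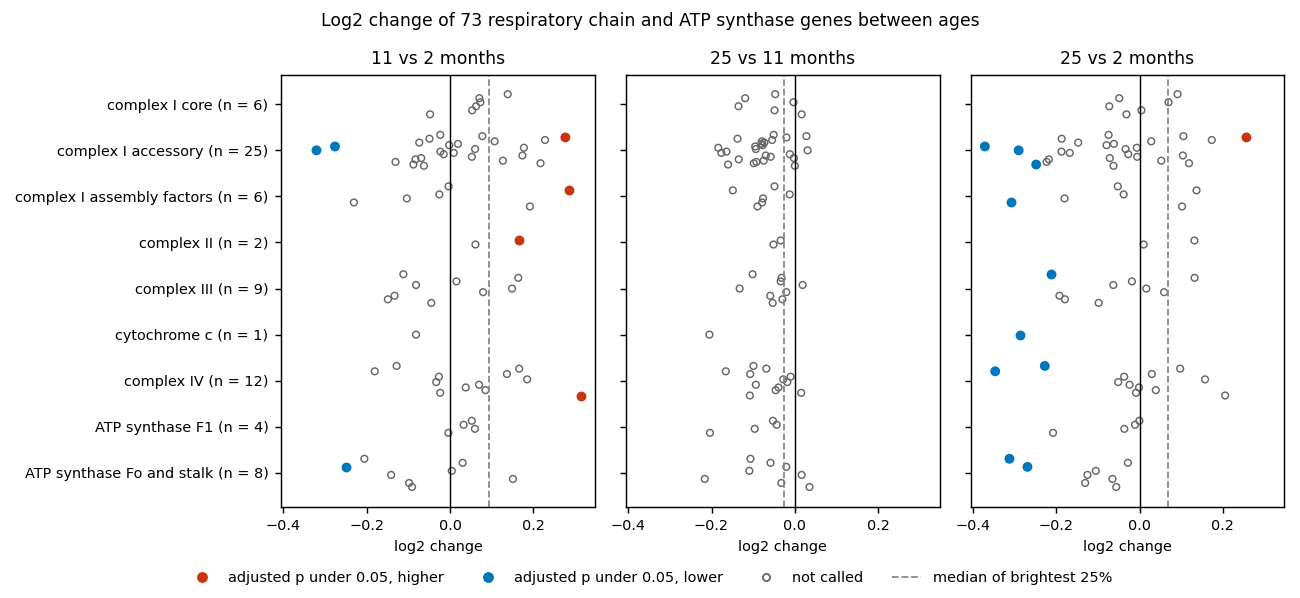
Log2 change of each of the 73 genes (circles, by complex on the vertical axis) for the 3 comparisons of ages, with called genes filled (red higher, blue lower) and the dashed line at the median of the brightest 25% of all probesets (0.09, -0.03 and 0.07 from left to right). The right panel holds 10 called genes on the lower side and 1 on the higher side, and the middle panel holds no called gene.

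The promoters of the genes lower at 25 months are shown because many of them hold the letters bound by NRF1, a transcription factor first described at the promoter of rat cytochrome c and known to bind many genes of the respiratory chain. The letters searched were GCGCANGCG on both strands, in RefSeq windows of 300 bases (GRCm38.p6) that run from 250 bases before a gene's start to 50 after it. Windows were at hand for 60 of the 73 genes, and 16 of the 60 (26.7%) held the letters, beside 12.7% of 10617 genes on the array, 18.4% of 2656 genes of its brightest 25% and 7.03% of 27025 RefSeq genes. Of the 10 genes lower at 25 than at 2 months, 8 had a window. Among these, 6 held the letters, against 10 of the other 52 genes (19.2%). The lower genes whose windows lacked the letters were Cox5a, whose fall had the lowest adjusted p of the 73 genes, and Atp5g1. Of all array genes lower at that age 11.0% held them, and of those higher 15.8%. This split, and the stretches printed, were chosen after the values were seen, and a match is a run of letters and not a measured binding site. The split also rests on calls that were not all stable. Leaving out any of 14 of the 18 arrays ended the call of Cycs, any of 7 that of Ndufs6 and 1 that of Ndufaf5. Uqcrfs1, Ndufb8 and Ndufc2, the genes next outside the threshold at 25 against 2 months, had windows without the letters. Each stretch has up to 25 bases on either side of the letters, which are in capitals, and ends at most 30 bases past the start. Atp5g3 lies at chr2:73911297-73911338, minus strand, Cycs at chr6:50566597-50566655, minus strand, Ndufa8 at chr2:36049314-36049392, minus strand, Ndufaf5 at chr2:140170637-140170675, plus strand, Ndufb10 at chr17:24724394-24724450, minus strand, and Ndufs6 at chr13:73328464-73328522, minus strand, each read along the gene.
Atp5g3: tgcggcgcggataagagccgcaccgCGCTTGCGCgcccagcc
Cycs: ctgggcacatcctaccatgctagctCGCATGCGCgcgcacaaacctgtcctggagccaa
Ndufa8: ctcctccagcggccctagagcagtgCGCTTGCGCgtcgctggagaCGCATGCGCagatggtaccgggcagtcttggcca
Ndufaf5: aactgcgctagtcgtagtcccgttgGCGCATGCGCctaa
Ndufb10: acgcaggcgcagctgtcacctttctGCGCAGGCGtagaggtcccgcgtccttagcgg
Ndufs6: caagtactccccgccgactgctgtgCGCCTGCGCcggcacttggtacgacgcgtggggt

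Ndufa8 holds the letters at 2 places, and in Ndufaf5 the same run reads as a match on both strands. The letters AAGATGGCG of YY1 were found in 5 of the 60 windows (8.33%, beside 2.85% of array genes), Ndufs6 among them. Those of GABP, CCGGAAGTG, were in 2 (3.33%, beside 3.97%), and those of the oestrogen-related receptors, CAAGGTCA, in 2 (3.33%, beside 1.32%), one of these being Atp5g3. All were searched on both strands, and no match in these 60 genes overlapped that of another motif. RefSeq windows were not at hand for Atp5a1, Atp5mpl, Cox4i1, Cox4i2, Cox6a2, Cyc1, Ndufa2, Ndufb9, Ndufs1, Sdhc, Uqcrb, Uqcrc2 and Uqcrq.

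In complex I the called subunits were all accessory ones. Accessory subunits surround the catalytic core and stabilise it, and 3 of the 25 were lower and 1 higher at 25 than at 2 months. Ndufa8, an accessory subunit on the intermembrane-space side, read 10.33, 10.47 and 10.63 (lowest, median and highest of 6 arrays) at 2 months, 9.95, 10.25 and 10.47 at 11 months and 9.98, 10.11 and 10.34 at 25 months. The 25-month arrays lay almost wholly below the 2-month arrays, with an overlap at a single pair of values. Its log2 change was -0.37 ± 0.08 (SE) at 25 against 2 months (adjusted p = 0.00270), a 1.29-fold fall, -0.28 ± 0.08 at 11 against 2 months (adjusted p = 0.0206) and -0.10 ± 0.08 at 25 against 11 months (adjusted p = 0.711). The fall at 25 against 2 months was called under every alternative tried. The call at 11 against 2 months was lost on leaving out 2 months replicate 2 (adjusted p = 0.0508) or 11 months replicate 6 (adjusted p = 0.0523).

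Ndufb10, an accessory subunit of the membrane arm, was lower at both later ages by about the same amount. It read 7.89, 8.02 and 8.10 at 2 months, 7.52, 7.68 and 7.95 at 11 months and 7.58, 7.70 and 7.93 at 25 months. At each later age only the highest array reached into the range of the 2-month arrays. The log2 change was -0.32 ± 0.07 at 11 months (adjusted p = 0.00415) and -0.29 ± 0.07 at 25 months (adjusted p = 0.00676) against 2 months, and 0.03 ± 0.07 from 11 to 25 months. Its direction and its calls held on leaving out any array.

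Ndufs6, a zinc-binding accessory subunit added late in assembly, had its lowest values at 25 months. The readings were 9.84, 9.91 and 10.15 at 2 months, 9.70, 9.83 and 10.19 at 11 months and 9.57, 9.71 and 9.87 at 25 months, with overlap between all ages. The change at 25 against 2 months was -0.25 ± 0.08 (adjusted p = 0.0371), and it was lost on leaving out any of 7 arrays, with an adjusted p of up to 0.0929.

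Ndufa13, also known as GRIM-19, an accessory subunit near the base of the hydrophilic arm, was the only gene higher at both later ages. It read 9.51, 9.76 and 9.93 at 2 months, 9.77, 10.03 and 10.21 at 11 months and 9.80, 10.06 and 10.20 at 25 months. The lowest arrays of the later ages lay within the 2-month range and the others above it. The changes against 2 months were 0.28 ± 0.09 at 11 months (adjusted p = 0.0300) and 0.26 ± 0.09 at 25 months (adjusted p = 0.0438). Leaving out any of 7 arrays ended the call at 11 months and any of 10 that at 25 months, with adjusted p of up to 0.0666 and 0.0920.

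Of the other accessory subunits none was called. Their widest change from 11 to 25 months was in Ndufa9, a subunit at the junction of the arms, which read 10.64, 10.81 and 11.02 at 11 months and 10.51, 10.62 and 10.84 at 25 months, a log2 change of -0.18 ± 0.09 (adjusted p = 0.504). Accessory subunits as a group had a median change of 0.00 at 11 months and -0.06 at 25 months against 2 months, and 18 of 25 lay below 0 at 25 months.

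Of the 6 core subunits of complex I, which include the carriers of the flavin and the iron-sulfur clusters, none was called in any comparison. Their log2 changes lay between -0.05 and 0.14 at 11 months and between -0.07 and 0.09 at 25 months against 2 months. Ndufs1, which holds several of the iron-sulfur clusters, read 10.61, 10.95 and 11.13 at 2 months, 10.94, 11.03 and 11.30 at 11 months and 10.90, 10.96 and 11.22 at 25 months. Its ranges overlapped throughout, and its change at 25 months was 0.09 ± 0.09, the highest of the core subunits, with a 95% interval of -0.10 to 0.28. Ndufs8, another iron-sulfur subunit, had the lowest, -0.07 ± 0.07, with an interval of -0.23 to 0.08. Ndufv2, which holds a further iron-sulfur cluster, changed by -0.05 ± 0.05 at 11 months (adjusted p = 0.470).

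The assembly factors went different ways. Ndufaf5, which modifies the core subunit Ndufs7 during assembly, read 6.63, 6.97 and 7.15 at 2 months, 6.53, 6.72 and 6.96 at 11 months and 6.51, 6.62 and 6.91 at 25 months. Its 25-month arrays lay low except for replicate 1, and the ranges overlapped. The change at 25 against 2 months was -0.31 ± 0.09 (adjusted p = 0.0191), and without 2 months replicate 2 it just missed the threshold (adjusted p = 0.0507). Ndufaf2, which binds a late intermediate of the complex, rose instead, by 0.29 ± 0.09 at 11 against 2 months (adjusted p = 0.0290), from 6.02, 6.23 and 6.61 to 6.36, 6.52 and 6.76. The ranges overlapped, and leaving out any of 5 arrays ended the call, with an adjusted p of up to 0.0742. At 25 months it read 6.23, 6.45 and 6.52, and its change from 2 months was 0.14 ± 0.09 (adjusted p = 0.318). Both factors are among the dimmer of the 73 genes, near the middle of the array's intensities.

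Complex II, succinate dehydrogenase, was represented by its membrane anchors alone. Sdhc read 9.90, 10.005 and 10.13 at 2 months, 10.06, 10.15 and 10.32 at 11 months and 10.08, 10.13 and 10.20 at 25 months. The medians of the later ages lay just above the highest 2-month array, so the ranges overlapped. Its change was 0.17 ± 0.05 at 11 months (adjusted p = 0.0305) and 0.13 ± 0.05 at 25 months (adjusted p = 0.0867). The call at 11 months was lost on leaving out any of 5 arrays, with an adjusted p of up to 0.0677, and in a fit of those ages alone (adjusted p = 0.0703). Sdhd, the other anchor, read 10.76, 10.83 and 10.94 at 2 months and 10.73, 10.84 and 11.02 at 25 months, a change of 0.01 ± 0.07. The catalytic subunits of the complex lie outside the symbols chosen; Sdha, the flavoprotein, changed by -0.02 ± 0.06 (adjusted p = 0.833) and Sdhb, the iron-sulfur subunit, by -0.13 ± 0.08 (adjusted p = 0.312) at 25 against 2 months, neither being called.

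In complex III only Cyc1 was called. Cyc1 is cytochrome c1, the haem protein that hands electrons to cytochrome c, and it read 11.13, 11.19 and 11.36 at 2 months, 11.01, 11.12 and 11.18 at 11 months and 10.93, 11.01 and 11.08 at 25 months. All 6 arrays of 25 months lay below all 6 of 2 months, and those of 11 months lay between and overlapped both. The change at 25 against 2 months was -0.21 ± 0.05 (adjusted p = 0.00388), a 1.16-fold fall. It stayed called on leaving out any array, and the changes of each step, -0.11 ± 0.05 and -0.10 ± 0.05, were not called (adjusted p = 0.103 and 0.477). Among the other 8 subunits, Uqcr10, a small subunit next to cytochrome c1, changed by 0.13 ± 0.06 at 25 months (adjusted p = 0.131), and Uqcrh, the hinge protein that helps cytochrome c1 meet cytochrome c, by -0.18 ± 0.09 (adjusted p = 0.186). Uqcrc1, a core protein, had an unadjusted p under 0.05 in both steps, with changes of 0.15 ± 0.06 at 11 against 2 months and -0.13 ± 0.06 at 25 against 11 months, and passed the adjusted test in neither. Uqcrb, the ubiquinone-binding subunit, was the complex's highest at 25 against 11 months, at 0.02 ± 0.08.

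Cycs, the mobile cytochrome c that carries electrons from complex III to complex IV, had 2 probesets. The brighter read 9.66, 10.08 and 10.36 at 2 months, 9.77, 9.96 and 10.09 at 11 months and 9.54, 9.71 and 9.95 at 25 months. The ranges of all ages overlapped, and the spread at 2 months, an SD of 0.25, was the widest of the called genes. Its change at 25 against 2 months was -0.29 ± 0.10, only just past the threshold (adjusted p = 0.0499), and leaving out any of 14 of the 18 arrays ended the call, with an adjusted p of up to 0.106. The dimmer probeset changed by -0.27 ± 0.10 (adjusted p = 0.0757).

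**Figure D2:**
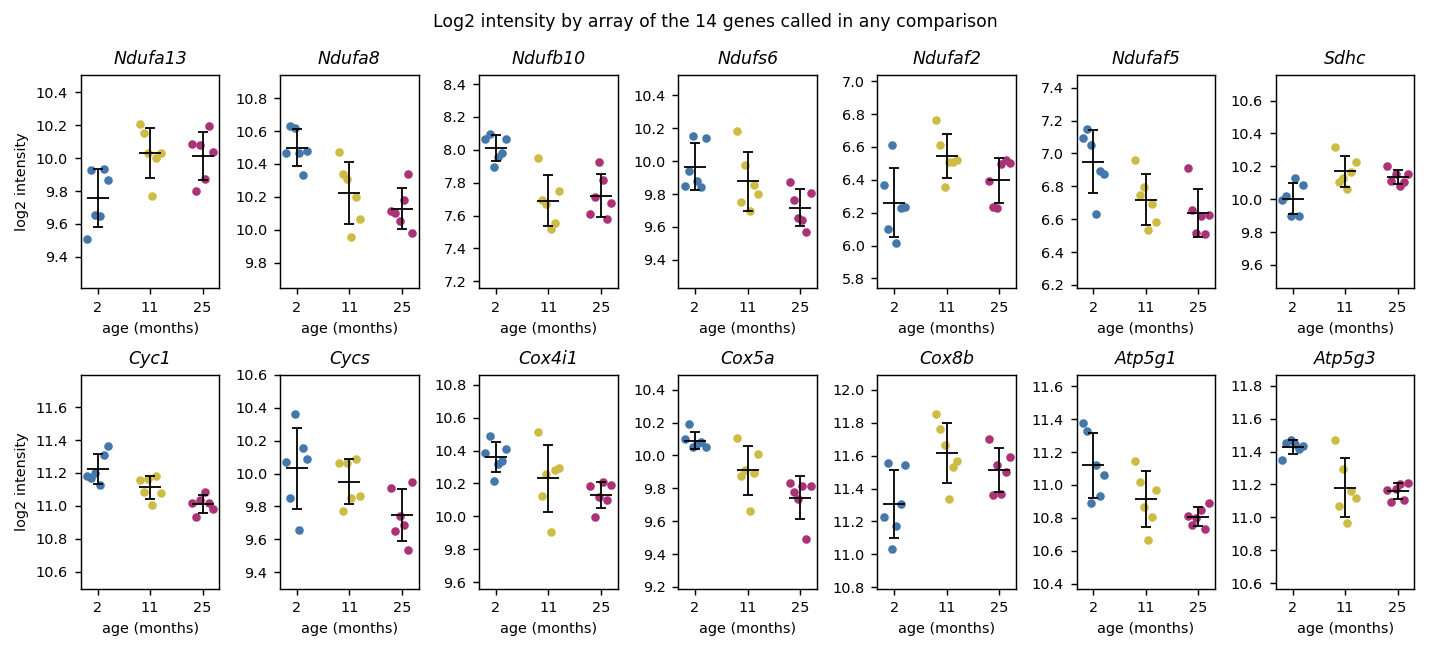
Log2 intensity on each array (points) by age for the 14 genes called in any comparison, with the mean and SD of 6 arrays (bars) and an axis of equal span in every panel. The 25-month points of Cox5a, Cyc1, Cox4i1 and Atp5g3 lie wholly below the 2-month points, and those of the other called genes overlap them.

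Complex IV, cytochrome c oxidase, held the fall with the lowest adjusted p among the 73 genes, that of Cox5a. Cox5a is a nuclear subunit on the matrix side of the complex, and it read 10.05, 10.08 and 10.19 at 2 months, 9.66, 9.90 and 10.11 at 11 months and 9.49, 9.80 and 9.83 at 25 months. Every array of 25 months was below every array of 2 months, and the 11-month arrays spanned the gap between them. The change was -0.35 ± 0.07 at 25 against 2 months (adjusted p = 0.00116), a 1.27-fold fall, made up of -0.18 ± 0.07 from 2 to 11 months (adjusted p = 0.0624) and -0.17 ± 0.07 from 11 to 25 months (adjusted p = 0.417). Cox5a and Ndufa8 were the only genes of the 73 called at 25 against 2 months with a log2 change past 0.322 in size.

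Cox4i1, the ubiquitous form of the largest nuclear subunit, also fell between 2 and 25 months. It read 10.22, 10.36 and 10.49 at 2 months, 9.91, 10.27 and 10.51 at 11 months and 9.99, 10.15 and 10.21 at 25 months. The 2-month and 25-month arrays did not overlap, although the gap between them was narrow, and the 11-month arrays covered both. The change was -0.23 ± 0.08 (adjusted p = 0.0410) and was lost on leaving out any of 10 arrays, with an adjusted p of up to 0.09999. These 2 genes, with Cyc1 and Atp5g3, made up the 4 of 73 whose arrays of 25 and 2 months did not overlap, beside 7.23% of all probesets. At 11 against 2 months no gene of the 73 had arrays apart, beside 6.42% of probesets.

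Cox8b, the heart and muscle form of subunit VIII in rodents, was higher at 11 months. It read 11.03, 11.27 and 11.56 at 2 months, 11.34, 11.62 and 11.85 at 11 months and 11.36, 11.52 and 11.70 at 25 months. The ranges overlapped, with 4 of the 2-month arrays below all those of 11 months. The change was 0.31 ± 0.09 at 11 months (adjusted p = 0.0260) and 0.21 ± 0.09 at 25 months (adjusted p = 0.148) against 2 months, and the call at 11 months was lost on leaving out any of 4 arrays, with an adjusted p of up to 0.0602.

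Several subunits of complex IV have a pair of isoforms from separate genes, and the balance within a pair was compared inside each array. The quantity is the log2 intensity of the tissue-restricted form minus that of the other form; its zero has no meaning, because probesets differ in brightness, so only its change with age is given. Tests were two-sided exact permutation tests over arrays, 9 in all (3 pairs with 3 comparisons) and adjusted over the 9, and 6 arrays against 6 allow no exact p below 0.00216. Cox4i2, a form known from lung and from cells short of oxygen, minus Cox4i1 gave -3.97, -3.92 and -3.81 at 2 months, -3.94, -3.56 and -3.43 at 11 months and -3.90, -3.51 and -3.32 at 25 months. The 2-month arrays lay close together at the low end, and 1 array of 11 months and some of 25 months reached down to them. The balance shifted towards Cox4i2 by 0.29 at 11 months (95% interval 0.07 to 0.52, exact p = 0.0108, adjusted p = 0.0325) and by 0.33 at 25 months (0.10 to 0.55, exact p = 0.0108, adjusted p = 0.0325). Cox4i2 itself is dim and was not called (0.17 ± 0.08 and 0.10 ± 0.08).

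Cox8b minus Cox8a, the ubiquitous form, shifted in the same way at 11 months. The quantity was 2.30, 2.45 and 2.72 at 2 months, 2.70, 2.86 and 2.97 at 11 months and 2.34, 2.75 and 3.04 at 25 months. At 11 months the arrays stood nearly clear of those at 2 months, and at 25 months they spread over both. The change was 0.34 at 11 against 2 months (0.12 to 0.55, exact p = 0.00649, adjusted p = 0.0325), 0.21 at 25 against 2 months (0.00 to 0.43, exact p = 0.106, adjusted p = 0.159) and -0.12 at 25 against 11 months (-0.34 to 0.09, exact p = 0.266, adjusted p = 0.342). Cox8a changed by -0.02 ± 0.09 at 11 months. Cox6a2, the heart and muscle form, minus Cox6a1 changed by 0.21 at 11 months (-0.01 to 0.43, exact p = 0.0952, adjusted p = 0.159) and 0.19 at 25 months (-0.03 to 0.42, exact p = 0.0952, adjusted p = 0.159), and did not pass. With array signal range as a covariate the 3 called shifts kept their direction and lost the call (0.29, 0.31 and 0.29, adjusted p from 0.127 to 0.149). The shift of Cox8b minus Cox8a shrank most, from 0.34 to 0.29. Leaving out any of the 6 arrays of 2 months ended both calls of Cox4i2 minus Cox4i1, and leaving out replicate 1, 3, 4 or 6 of 2 months ended that of Cox8b minus Cox8a, with changes of 0.28 to 0.34 and adjusted p from 0.0584 to 0.0779. Cox7a2, a further subunit with a muscle counterpart, changed by 0.07 ± 0.10 at 11 months; the counterpart was not analysed here.

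**Figure D3:**
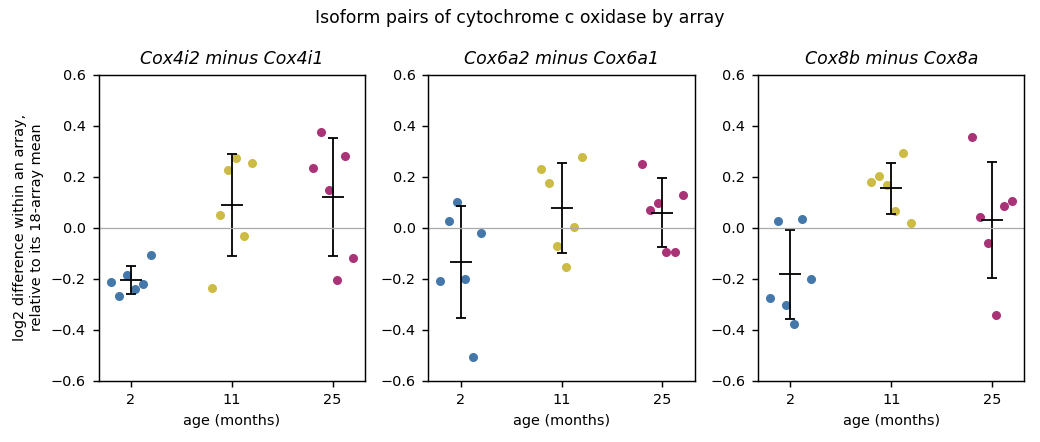
Difference in log2 intensity between the isoforms of 3 subunits of cytochrome c oxidase within each array, relative to the mean over 18 arrays, by age (points, with mean and SD of 6 arrays). The 2-month points of Cox4i2 minus Cox4i1 sit together below 0 and those of the later ages spread upwards, with a mean change of 0.29 at 11 months and 0.33 at 25 months.

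In ATP synthase the called genes both encode subunit c, which forms the proton-driven ring of Fo. Mammals have 3 genes for it, whose mature proteins are the same and whose import sequences differ. Atp5g3 read 11.35, 11.44 and 11.47 at 2 months, 10.96, 11.14 and 11.47 at 11 months and 11.10, 11.17 and 11.21 at 25 months. The 25-month arrays lay wholly below the 2-month arrays, and those of 11 months ran from below the former to the top of the latter. The changes were -0.25 ± 0.06 at 11 months (adjusted p = 0.0103) and -0.27 ± 0.06 at 25 months (adjusted p = 0.00544) against 2 months, and leaving out any array ended neither call.

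Atp5g1 was also lower at 25 than at 2 months, reading 10.89, 11.09 and 11.37 at 2 months, 10.67, 10.92 and 11.15 at 11 months and 10.73, 10.80 and 10.89 at 25 months. The highest 25-month array just touched the lowest of 2 months. Its change was -0.21 ± 0.08 at 11 months (adjusted p = 0.0876) and -0.31 ± 0.08 at 25 months (adjusted p = 0.0130), and a dimmer probeset of the gene gave -0.30 ± 0.08 (adjusted p = 0.0120). Atp5g2, named after its values were seen because it is the remaining gene of the 3, changed by -0.03 ± 0.08 at 25 months (adjusted p = 0.861), with a 95% interval of -0.21 to 0.15. Whether the 3 genes differ from each other in their change was not tested.

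No other gene of ATP synthase was called. All 12 genes had values below 0 at 25 against 2 months, beside 69.9% of the 73 genes and 54.5% of all probesets, but 10 of the 12 were not called. Atp5a1, the alpha subunit of F1, changed by 0.00 ± 0.04 with an interval of -0.09 to 0.09. Atp5e of F1, named after its values were seen, was less precise, at -0.21 ± 0.11 (adjusted p = 0.228, interval -0.44 to 0.03). Atp5pb, the b subunit of the outer stalk, changed by -0.06 ± 0.06 at 25 against 2 months and was the gene of the 73 with the highest change from 11 to 25 months, 0.04 ± 0.06. Atp5md, a small subunit at the dimer interface, had the lowest, -0.22 ± 0.09 (adjusted p = 0.438), from 8.58, 8.83 and 9.08 to 8.38, 8.60 and 8.89.

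**Figure D4:**
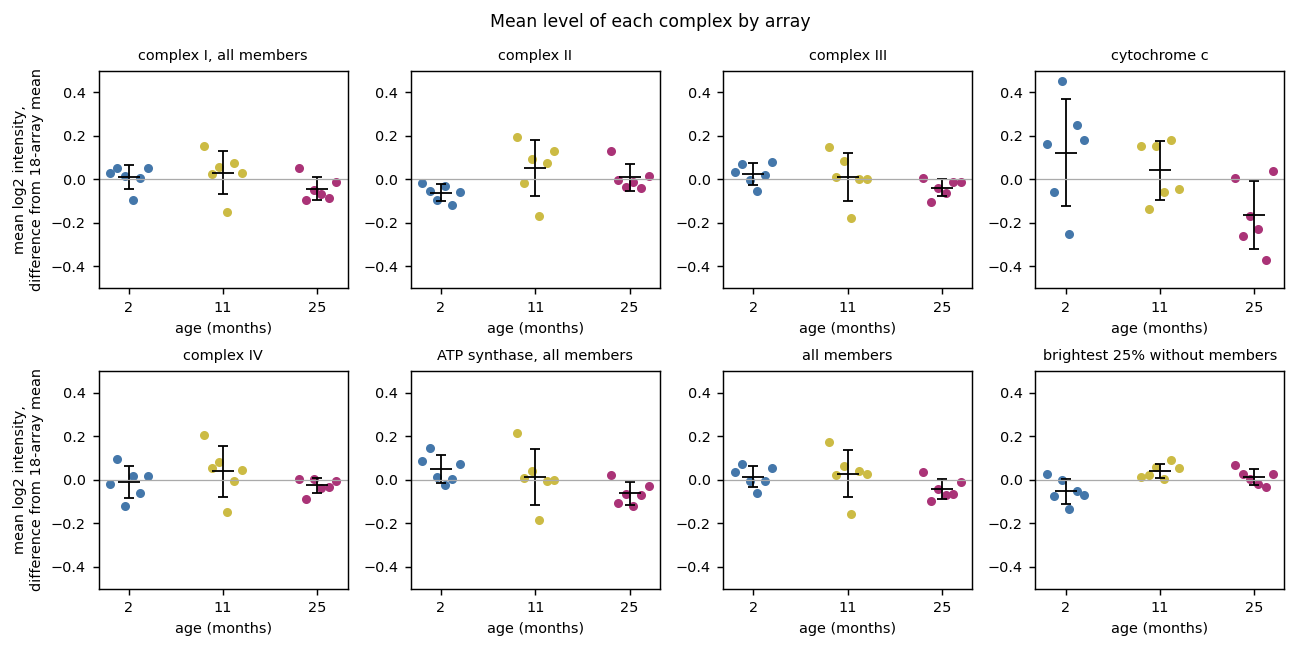
Mean log2 intensity of the genes of each complex on each array (points), as the difference from its mean over 18 arrays, by age, with mean and SD of 6 arrays; the last panel is the brightest 25% of probesets without these genes. The 11-month arrays spread most in complexes I to IV and ATP synthase, with replicate 1 high and replicate 4 low, and in cytochrome c the 2-month arrays spread most.

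From 11 to 25 months the values of the 73 genes lay mostly below 0 without any gene passing. No gene was called, beside 0.15% of all probesets (0.0588% higher and 0.0915% lower), and 4 had an unadjusted p under 0.05 (Atp5md, Cox5a, Uqcrc1 and Cyc1), 5.48% of the 73 beside 10.4% of all probesets. No gene had arrays that did not overlap, beside 1.12% of probesets. Of the 73, 65 had a change below 0 (89.0%), beside 48.8% of all probesets and 62.4% of the brightest 25%, and their median change was -0.06, beside 0.00 for all probesets and -0.03 for the bright ones. After centring on the brightest 25% the count was 56 and the median -0.0326, and after a further quantile normalization 57 and -0.0404. These genes do not vary independently: their mean per array, averaged over the 6 arrays of an age, was 9.79 with an SD of 0.05 in the youngest mice, 9.81 with an SD of 0.11 at 11 months and 9.74 with an SD of 0.05 in the oldest. At 11 months a single array, replicate 1, stood at 9.95 and another, replicate 4, at 9.62. The difference between the means at 11 and 25 months, 0.07, was smaller than the SD at 11 months. The comparisons of 11 and of 25 months with 2 months share the 2-month arrays, and those of 11 with 2 and 25 with 11 months share the 11-month arrays, so their values are not independent of each other.

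**Figure D5:**
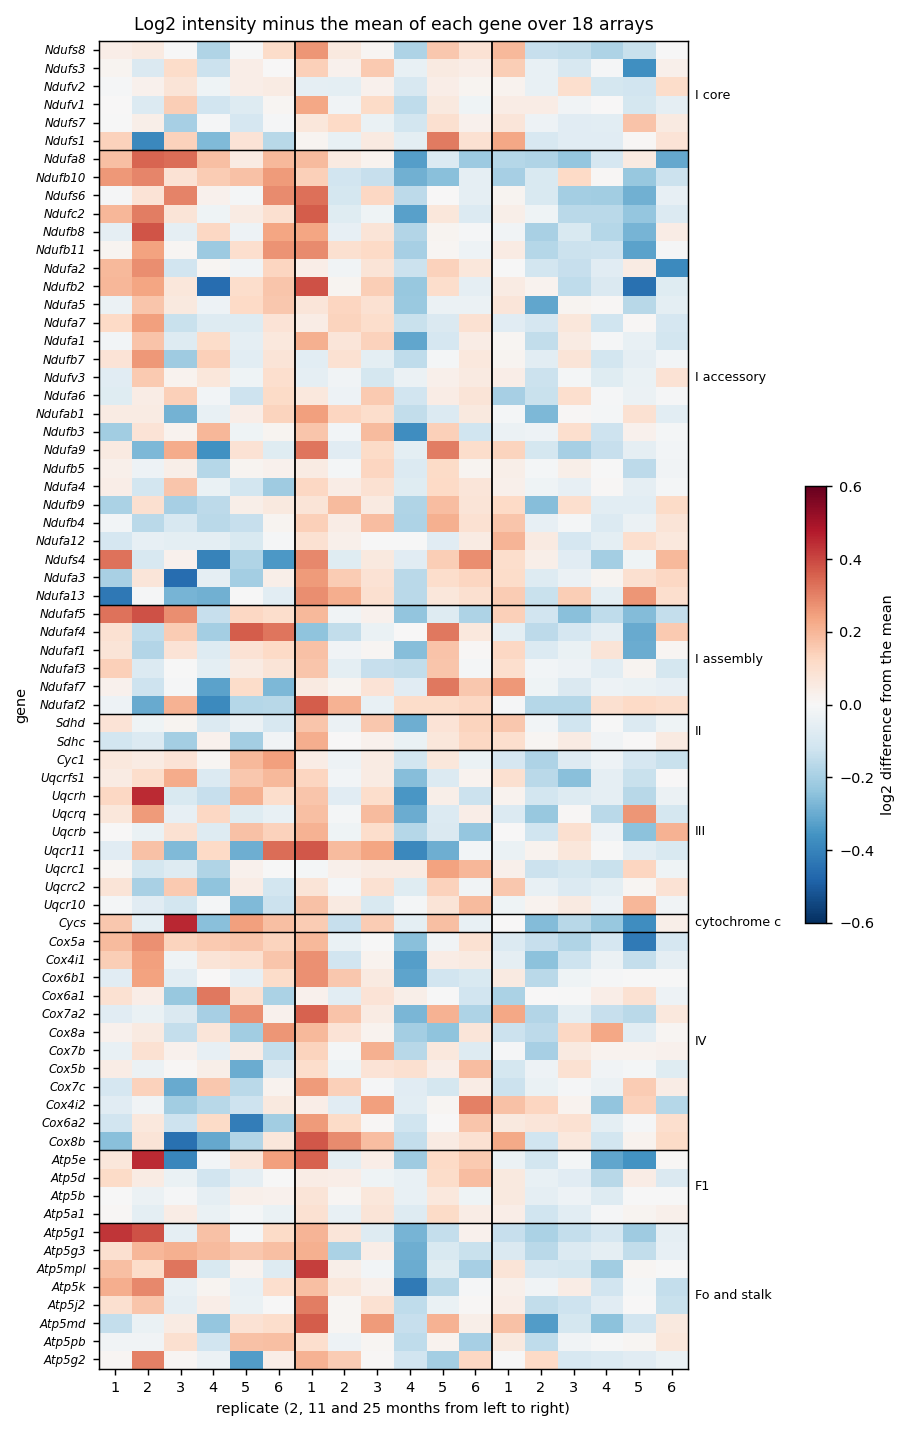
Log2 intensity of each of the 73 genes (rows, by complex) on each of the 18 arrays (columns, by age and replicate), as the difference from the mean of that gene over all arrays (colour, red above and blue below). The column of 11 months replicate 1 is red and that of replicate 4 blue in most complexes, and rows such as Ndufa8, Ndufb10 and Atp5g3 turn from red at 2 months to blue at the later ages.

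The numbers of higher and lower calls depended on how arrays were scaled. The split of calls at 11 against 2 months was 4 higher and 3 lower in the deposited scaling, 1 and 9 after a further quantile normalization and 0 and 11 after centring on the brightest 25% of probesets. At 25 against 2 months it was 1 higher and 10 lower, then 0 and 16, then 0 and 15. The rises of Ndufa13, Sdhc and Cox8b were not called under either of the latter scalings, and that of Ndufaf2 was not called after centring on the bright probesets. Ndufa8, Ndufb10 and Atp5g3 were called lower at both later ages under each. With signal range as a covariate, the calls at 11 against 2 months of Ndufa8 (adjusted p = 0.154), Atp5g3 (0.0578), Ndufaf2 (0.164), Ndufa13 (0.0639), Sdhc (0.0696) and Cox8b (0.123) ended, and that of Ndufb10 did not (0.0368). Without the 3 arrays of narrowest range, calls that ended at 25 against 2 months included those of Ndufb10 (adjusted p = 0.0507), Atp5g1 (0.0618), Ndufs6 (0.188) and Cox4i1 (0.146). By one-way ANOVA with Tukey, Ndufaf5 (0.0691) and Cycs (0.147) were among those no longer called. The value given there is the larger of the adjusted ANOVA p over 3 ages and the Tukey p, which was not adjusted over probesets.

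A few genes, named here after their values were seen, lay just outside the threshold. At 11 against 2 months these were Ndufa3, an accessory subunit of complex I (0.23 ± 0.08, adjusted p = 0.0512), Uqcr10 (0.16 ± 0.06, adjusted p = 0.0540), Ndufb4, another accessory subunit (0.17 ± 0.06, adjusted p = 0.0586), and Cox5a (-0.18 ± 0.07, adjusted p = 0.0624). Ndufaf5 (adjusted p = 0.0710) and Uqcrc1 (adjusted p = 0.0739) came next. Ndufa3 read 10.11, 10.44 and 10.64 at 2 months and 10.40, 10.68 and 10.82 at 11 months, with overlapping ranges. At 25 against 2 months Uqcrfs1, the Rieske iron-sulfur protein of complex III, changed by -0.19 ± 0.07 (adjusted p = 0.0617), from 8.25, 8.46 and 8.56 to 8.08, 8.24 and 8.43. The accessory subunits Ndufb8 (-0.22, adjusted p = 0.0674) and Ndufc2 (-0.22, adjusted p = 0.0771) were next. Just inside it at 25 months were Cycs, Ndufa13 and Cox4i1, the called genes with the highest adjusted p.

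Other genes of respiratory chain assembly and electron entry came from a separate list of 49, of which 42 were measured. Of the 42, 5 were higher and 4 lower at 25 than at 2 months, 5 higher and 1 lower at 11 than at 2 months and limma called 0 at 25 against 11 months (5 at an unadjusted p under 0.05). The shares called, 21.4% at 25 and 14.3% at 11 against 2 months, stand beside 17.4% and 19.1% of all probesets. Nnt, the transhydrogenase that uses the proton gradient to make NADPH, had the largest change, 0.63 ± 0.13 (adjusted p = 0.00171), from 8.42, 8.59 and 9.16 at 2 months to 9.06, 9.37 and 9.56 at 25 months. The other higher genes at 25 months were Etfdh (0.30), which feeds electrons from fatty acid oxidation to ubiquinone, and the assembly factors Tmem126b (0.31), Sdhaf4 (0.27) and Atpaf1 (0.24). The lower genes were the assembly factors Timmdc1 (-0.32), Uqcc3 (-0.27), Coa7 (-0.20) and Cox15 (-0.21), the last of which makes haem a for complex IV.

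Markers of other cells and fibres moved with age in the same libraries. The 6 skeletal muscle markers measured were all bright, at 13.04 or above. At 11 against 2 months Mb, myoglobin, was higher (0.29, adjusted p = 0.00835) and Tnnt3, fast troponin T, lower (-0.16, adjusted p = 0.0464), and at 25 against 2 months limma called 0 of the 6 (1 at an unadjusted p under 0.05). The brown adipocyte markers lay near background, Ucp1 at 5.07. Slow fibre markers were higher at 25 than at 2 months for 4 of 6, and their summed intensity ran from 4816 to 11505 at 2 months, 7235 to 10970 at 11 months and 8077 to 15720 at 25 months. Fibroblast markers were lower for 5 of 6 at 25 against 2 months, with sums of 8743 to 13220, 6078 to 7516 and 4765 to 6219. The 5 changes were uneven: -3.02 in Col1a1, -2.38 in Col1a2, -2.00 in Col3a1, -0.40 in Dpt and -0.24 in Pdgfra. Dcn, the brightest of the 6, changed the other way, by 0.19 (adjusted p = 0.146). At 11 against 2 months Dcn was called higher (0.38, adjusted p = 0.00551). Adipocyte markers were higher for 3 of 6 at 11 against 2 months, with sums of 1713 to 2138, 1792 to 2552 and 1719 to 2025. These sums mostly follow Pnpla2, which read 10.46 on average and was not called (0.03 at 11 against 2 months). The next brightest, Fabp4, read 7.15. Endothelial markers were lower for 3 of 7 at 25 against 2 months (2129 to 2399, 2077 to 2466 and 1967 to 2189), macrophage markers were higher for 1 of 5 (436 to 623, 544 to 660 and 524 to 659), and of 2 erythroid markers none was called (151 to 200, 136 to 178 and 132 to 208). Array signal range, the interquartile range of log2 intensity, averaged 2.19, 2.33 and 2.26 at the 3 ages in order, with an SD over 6 arrays of 0.11, 0.08 and 0.08. The part of these measures in the changes of the 73 genes was not tested, apart from signal range as a covariate, under which 2 of the 73 were called at 11 and 13 at 25 against 2 months.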

How the data were processed

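The deposited values were linear intensity, 1 per probeset and array, for 15300 probesets; per the submitters' processing notes they were made by the authors with Affymetrix Expression Console 1.2.1 and RMA, on build mm8, and the filter behind the number of probesets is not given in the sources used here. Array medians lay between 97.6 and 101.1, and no batch or date was labelled. For arrays, their number limits the precision. Log2 was taken and limma 3.58.1 (R 4.3.3) fitted 1 mean per age over all 18 arrays and all probesets, with Benjamini-Hochberg adjustment per comparison at 0.05 and no filter on low values, so all 73 genes were tested. The labels call the samples biological replicates.

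Symbols came from the platform annotation: 13592 probesets had 1, 941 several and 767 none. All 73 genes matched the RefSeq table by Entrez identifier, with 0 symbols changed; its build differs from mm8, so only RefSeq promoter stretches carry positions. Of the genes, 6 had 2 probesets. The 73 genes, their complexes, the other lists, the markers and the motifs were chosen with earlier results of these data known. The genes named were those called, and per complex and comparison those with the largest rise and fall, the isoform pairs and the genes of small groups; others are said to be named after their values were seen or come from the separate lists. The fit was tested on 10 simulated data sets with 200 shifted probesets each. Their probesets varied independently, unlike the 73 genes, so the simulations do not measure how reliable the calls above are. Same-numbered animals of different ages are different animals, and the correlation of their deviations ran from -0.33 to 0.42, so numbers were not used as pairs. Alternatives were the authors' one-way ANOVA with Tukey as named in the series text, other scalings, filters, variance models, thresholds, a covariate of signal range, a replicate block, 1 mean over all probesets of a gene and leaving out each array. Summaries used Python 3.11.15, pandas 2.3.3, numpy 2.4.6 and matplotlib 3.10.9.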

Additional observations from a re-analysis of the deposited data

Results flagged for a closer look

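In 5 of 138 groups of 6 arrays tested, a single array stood apart from the other 5 by Dixon's criterion, and chance alone marks about 1 group in 20. Cox5a read 9.492 on 25 months replicate 5, below the next array at 9.733; its fall at 25 months was called without that array too. Ndufaf5 read 6.911 on 25 months replicate 1, above the next at 6.654. Uqcr10 read 9.719 on 25 months replicate 5, above the next at 9.573. The mean of complex II was 10.611 on 25 months replicate 1, above the next at 10.492. The mean of complex I was 9.232 on 2 months replicate 4, below the next at 9.329; that array also had the narrowest signal range, 2.03 on the log2 scale.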

How the results depend on the processing

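No call turned direction under the 14 alternatives or on leaving out any of the 18 arrays. Called genes among the 73 at 11 against 2 months were 1 at a threshold of 0.01, 0 with a log2 change past 0.322 in size, 11 after centring on the brightest 25% (median change -0.0769) and 2 with signal range as a covariate. At 25 against 2 months they were 5 at 0.01, 2 past 0.322, 7 without the 3 arrays of narrowest range and 6 by one-way ANOVA with Tukey. Over all probesets the calls at 11 against 2 months were 1256 at 0.01, 824 past 0.322, 959 with the covariate and 1555 without the 3 narrowest arrays; those at 25 against 2 months were 1419 and 896. At 25 against 11 months they were 3 at 0.01, 37 with the covariate, 185 with array weights, 6 with the replicate block, 45 with only those ages and 461 by ANOVA with Tukey, and 0 of the 73 genes under each. The ANOVA adjusts the p over 3 ages across probesets but not the Tukey p of a comparison. Its counts are therefore not at the same error rate as the others. Isoform shifts with the covariate were 0.2854 and 0.3121 for Cox4i2 minus Cox4i1 and 0.2885 for Cox8b minus Cox8a. For the replicate block, signs of the isoform differences were exchanged within 6 numbers. The shifts kept 0.2941, 0.3250 and 0.3369 and were not called (adjusted p = 0.113 each). With so few sign patterns, a call after adjustment needs most of the isoform tests to reach the lowest possible p. The numbers also do not pair animals, so this test cannot decide whether the shifts hold. In the limma fit the block called 10, 0 and 12 of the 73 genes.

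Leaving out 1 array gave 4 to 9, 0 to 0 and 7 to 12 called genes of the 73, 1895 to 3787, 3 to 33 and 2081 to 3025 probesets, and median changes of -0.0327 to 0.0515, -0.1063 to -0.0339 and -0.0616 to -0.0327 (11 against 2, 25 against 11 and 25 against 2 months). The counts of 4 were without 11 months replicates 2 or 6, and those of 7 without 25 months replicates 3 or 5. Isoform changes in the same order ran over 0.2573 to 0.3590, -0.0340 to 0.0956 and 0.2734 to 0.3897 for Cox4i2 minus Cox4i1, 0.1375 to 0.2591, -0.0638 to 0.0227 and 0.1199 to 0.2415 for Cox6a2 minus Cox6a1, and 0.2976 to 0.3803, -0.1881 to -0.0488 and 0.1489 to 0.2881 for Cox8b minus Cox8a. The cause of these differences was not tested.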

Other observations

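A further 16 probesets carry one of these gene symbols together with others, so that no gene can be named from them. Of these, 0 were higher and 1 lower at 11 against 2 months, 0 were called at 25 against 11 months, and 0 were higher and 2 lower at 25 against 2 months, with median log2 changes of 0.02, -0.04 and -0.08. For Ndufb4, an accessory subunit of complex I with 2 probesets, the dimmer probeset was higher at 11 than at 2 months by 0.31 ± 0.09 (adjusted p = 0.0206), and the brighter, which stood for the gene above, changed by 0.17 with an adjusted p of 0.0586.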
